A study of Mus musculus with 8 samples.

Results

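The IL-12 family subunits are 5 genes (Il12a, Il12b, Il23a, Il27 and Ebi3) taken from the 55414 rows of the deposited count table by matching their mouse symbols to Ensembl IDs, and each symbol matched 1 row. They were followed in red pulp macrophages, the iron-recycling macrophages of the spleen, that had been sorted from WT C57BL/6J mice 2 h after CLP (cecal ligation and puncture, which lets gut bacteria leak into the abdomen) or 2 h after Sham surgery. Cells were isolated by FACS, and the labels name no other allele or agent in either group. They give neither the animals' age nor whether each library came from its own mouse. P-values therefore measure the spread between these 4 CLP and 4 Sham libraries, which may in part be technical.

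The members of this cytokine family are heterodimers, built from a helical subunit and a subunit that resembles a soluble receptor. The p40 chain (Il12b) pairs with p35 (Il12a) to form IL-12 and with p19 (Il23a) to form IL-23, while EBI3 (Ebi3) pairs with p28 (Il27) to form IL-27 and with p35 to form IL-35. IL-12 is known for driving interferon-gamma production by NK and T cells and IL-23 for sustaining IL-17-producing cells, whereas IL-27 and IL-35 are known mainly for restraining T cell responses. A cell can secrete a heterodimer only when it makes both chains, so the pairing of the mRNAs within a library is the quantity described here, although mRNA counts do not measure secreted protein.

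Promoter sequences of the subunits are shown as a description, and whether they bear on the level or response of these genes was not tested. RefSeq sequences on build GRCm38.p6 were matched by symbol for 3 of the 5 genes, Il12b, Ebi3 and Il12a, with 4 annotated start sites in all. The counts were made on another build, mm39, so these positions belong to the sequence table and not to the counts. Each line gives the 250 bases before the start on the + strand, 5′ to 3′, with motif matches in capitals. They lie at chr11:44399813-44400062 for Il12b, chr17:55952373-55952622 for Ebi3, and chr3:68690394-68690643 and chr3:68691174-68691423 for the start sites 1 and 2 of Il12a.
Il12b: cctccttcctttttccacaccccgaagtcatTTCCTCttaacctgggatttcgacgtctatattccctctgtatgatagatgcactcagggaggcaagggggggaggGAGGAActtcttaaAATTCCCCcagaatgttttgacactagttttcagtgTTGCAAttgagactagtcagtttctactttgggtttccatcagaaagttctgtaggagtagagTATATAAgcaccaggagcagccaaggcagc
Ebi3: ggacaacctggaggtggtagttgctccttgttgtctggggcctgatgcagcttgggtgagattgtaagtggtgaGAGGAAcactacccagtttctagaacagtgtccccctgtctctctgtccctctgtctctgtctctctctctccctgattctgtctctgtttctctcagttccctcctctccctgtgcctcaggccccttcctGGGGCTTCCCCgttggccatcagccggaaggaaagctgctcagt
Il12a, start site 1: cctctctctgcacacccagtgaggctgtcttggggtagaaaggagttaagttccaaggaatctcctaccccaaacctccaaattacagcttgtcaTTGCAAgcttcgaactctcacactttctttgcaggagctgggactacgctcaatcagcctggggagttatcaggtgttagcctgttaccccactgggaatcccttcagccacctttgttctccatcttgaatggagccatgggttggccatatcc
Il12a, start site 2: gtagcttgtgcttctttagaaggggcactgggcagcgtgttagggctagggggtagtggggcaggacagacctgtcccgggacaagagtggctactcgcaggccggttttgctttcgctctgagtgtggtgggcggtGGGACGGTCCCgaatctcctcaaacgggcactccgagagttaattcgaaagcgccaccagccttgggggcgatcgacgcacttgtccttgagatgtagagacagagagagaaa

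Both strands were searched for 7 motifs, and each share below is that of 32851 promoters of the same length that hold the motif. The Il12b promoter held TATA, any base, then AA, a TATA box motif found in 10.4% of promoters, 30 bases before the start, and TTGCAA, a C/EBP motif found in 5.34%, from 93 bases before it. It also held 2 matches to GAGGAA, bound by ETS factors such as PU.1 (23.3% of promoters), and 1 to GGGGAATT on the minus strand (AATTCCCC as printed), a short NF-kB-like motif that 0.734% of promoters hold and that was chosen after the sequence had been read. The Ebi3 promoter held a loose NF-kB motif found in 45.8% of promoters (GGG, then 5 bases of any kind, then CC), which matched in 2 overlapping windows on both strands within GGGGCTTCCCC, and 1 GAGGAA. Start site 1 of Il12a had 1 TTGCAA and start site 2 had the loose NF-kB motif on both strands within GGGACGGTCCC, where the matches overlap. An AP-1 motif (TGA, any base, then TCA, in 6.75% of promoters) and an interferon regulatory factor motif (GAAA, 2 bases of any kind, then GAAA, in 2.98%) had no match in these 4 windows. A match describes letters in the window and not a bound site.

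After CLP the macrophages held much more mRNA for p40 and p28, 1.99 times the EBI3 mRNA, and hardly any mRNA for p35 or p19. Levels are given as CPM, reads scaled to a common library total after rescaling by the TMM method, and 1 read equals 0.0362 to 0.0662 CPM depending on the library. The table held 15392992 to 25665633 reads per library. Of the 5 subunit genes, 3 had enough reads for the test across all genes and all 3 were higher after CLP, where 19.8% of the 14004 genes tested were higher, 23.5% lower and 43.3% changed in either direction (adjusted p under 0.05 in edgeR's quasi-likelihood test, Benjamini-Hochberg over all genes). The median log2 fold change over all genes tested was -0.05.

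**Figure D1:**
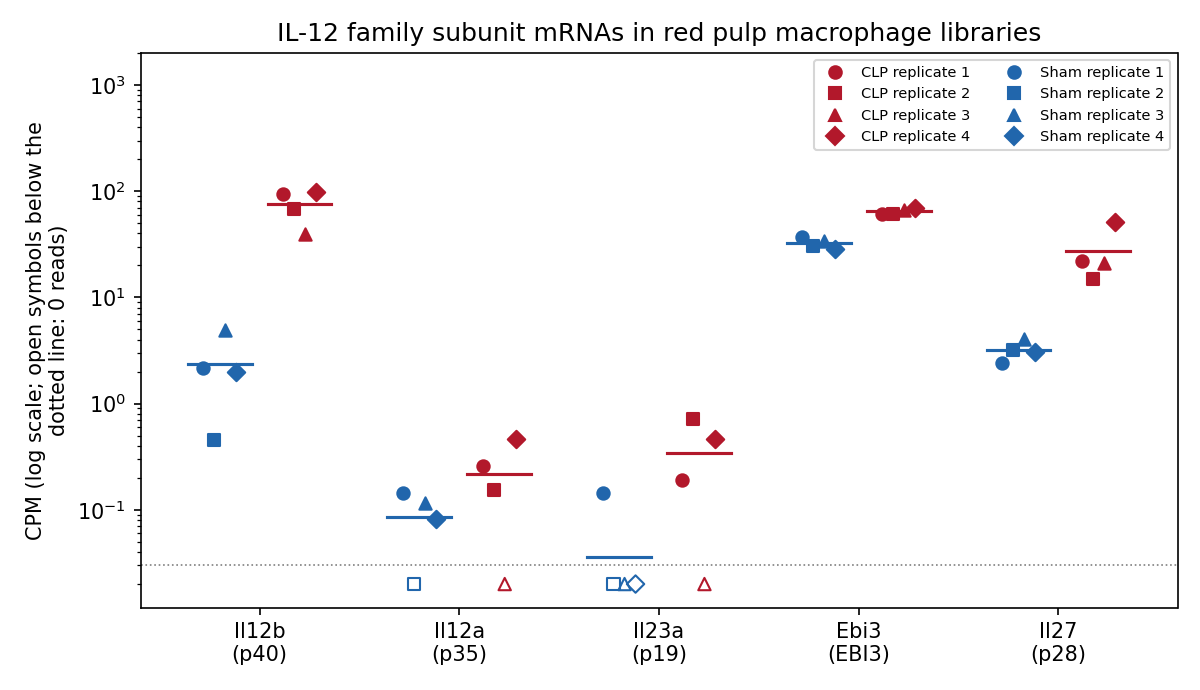
CPM (log scale) of the 5 subunit mRNAs in each library, blue for Sham and red for CLP, with a symbol for each replicate and a bar at the group mean. Open symbols below the dotted line are libraries with 0 reads. Il12b, Il27 and Ebi3 do not overlap between the groups, and Il12a and Il23a stay below 1 CPM in all 8 libraries.

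Il12b, the p40 chain shared by IL-12 and IL-23, was at 93.6, 68.2, 39.9 and 98.0 CPM in CLP replicates 1 to 4 and at 2.17, 0.453, 4.89 and 1.97 CPM in Sham replicates 1 to 4. Every CLP library stood above every Sham library, as for 18.7% of genes tested (41.5% did not overlap in either direction), and the lowest values were those of CLP replicate 3 and Sham replicate 2. The means were 74.9 ± 26.8 CPM in CLP and 2.37 ± 1.85 CPM in Sham (SD, n = 4 each). The log2 fold change was 5.05 (SE 0.59, 33.0-fold, adjusted p = 0.000459 in edgeR), the 14th highest of all genes tested. In Sham the gene rested on 11 to 84 reads per library, so its baseline carries large counting error.

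Il27, which encodes the p28 chain of IL-27, was at 22.1, 14.8, 21.1 and 51.2 CPM in the CLP replicates and at 2.39, 3.17, 4.08 and 3.04 CPM in the Sham replicates. The groups did not overlap, and CLP replicate 4 lay well above the other CLP libraries. The log2 fold change was 3.11 (SE 0.41, 8.66-fold, adjusted p = 0.000389 in edgeR), and 2.62 without CLP replicate 4. Exons of Il27 share 103 bases with Apobr, an apolipoprotein receptor gene on the opposite strand. Apobr had a CLP mean of 59.5 ± 8.1 CPM against 55.4 ± 2.2 CPM in Sham, which did not pass (log2 fold change 0.10, adjusted p = 0.43 in edgeR).

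Ebi3, the partner of p28 and p35, was the subunit with the least spread. It was at 60.6, 61.0, 66.6 and 69.6 CPM in the CLP replicates and at 37.0, 30.3, 34.1 and 28.3 CPM in the Sham replicates. It was thus well detected after Sham surgery too, on 586 to 1022 reads per library, and the groups did not overlap. It rose 1.99-fold (log2 fold change 0.99, SE 0.10, adjusted p = 1.91e-05 in edgeR), or by 0.68 on the log2 scale when libraries were scaled by their totals in place of TMM (adjusted p = 9.60e-05). Its exons share 270 bases with an antisense gene, Gm16712, with 1.23 ± 0.38 CPM in CLP against 0.541 ± 0.316 CPM in Sham (adjusted p = 0.0663 in edgeR).

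Il12a, the p35 chain of IL-12 and IL-35, had 4, 3, 0 and 7 reads in the CLP replicates and 4, 0, 2 and 2 reads in the Sham replicates. These are 0.218 ± 0.194 CPM in CLP and 0.0859 ± 0.0627 CPM in Sham (SD, n = 4 each), too few for the test across genes. The difference did not pass a two-sided exact permutation test of the CPM over the 70 assignments (p = 0.257, where the smallest possible is 0.0286). The 0 reads in CLP replicate 3 allow a level of up to 0.164 CPM (3 reads). Without that library the p was 0.0286, the smallest that 4 against 3 libraries can give.

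Il23a, the p19 chain of IL-23, had 3, 14, 0 and 7 reads in the CLP replicates and 4, 0, 0 and 0 in the Sham replicates. Its mean was 0.343 ± 0.313 CPM in CLP and 0.0362 ± 0.0724 CPM in Sham (exact permutation p = 0.143). CLP replicate 2 held most of the CLP reads. Without CLP replicate 3, which had 0 reads, the p was 0.0286, and in edgeR with no filter on low counts the log2 fold change was 2.87 (adjusted p = 0.051). A rise of Il23a was therefore not called, and the counts leave a wide range for it.

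Levels of different genes can be compared only per length, here as CPM per kilobase of merged exons (mean ± SD, n = 4). In Sham the order was Ebi3 (28.1 ± 3.4), Il27 (3.10 ± 0.68), Il12b (1.21 ± 0.94), Il12a (0.0505 ± 0.0369) and Il23a (0.0161 ± 0.0322). The ranges of Il27 (2.34 to 3.99) and Il12b (0.230 to 2.49) overlapped, and so did those of Il12a and Il23a. In CLP the order was Ebi3 (55.9 ± 3.8), Il12b (38.1 ± 13.6), Il27 (26.7 ± 15.9), Il23a (0.153 ± 0.139) and Il12a (0.128 ± 0.114). There Ebi3 (52.5 to 60.3) lay above Il12b (20.3 to 49.8) in every library, whereas Il12b and Il27 (14.5 to 50.1) overlapped and Il23a and Il12a did too.

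The pairing of subunits was compared as the ratio of the shared chain to its partner within each library, per kilobase and with 0.5 reads added to each count, which does not depend on how libraries are scaled. For IL-12, the log2 ratio of Il12b to Il12a was 8.13, 8.36, 10.30 and 7.42 in the CLP replicates and 3.54, 4.31, 4.87 and 4.07 in the Sham replicates. The p40 mRNA thus exceeded p35 in each library, and with 0.5 reads added by more in every CLP library than in any Sham library. Il12a had 0 reads in CLP replicate 3 and Sham replicate 2, so the ratios there rest on the reads added and are not bounded above. The difference between the groups was 4.36 on the log2 scale (two-sided exact permutation p = 0.0286, the smallest possible, and 0.0571 adjusted over the 4 ratios tested). It therefore did not pass 0.05 after adjustment. Summed over libraries there were 5004 Il12b and 14 Il12a reads in CLP, 309 to 1 per kilobase (95% exact Clopper-Pearson interval 184 to 566, counting error only). In Sham there were 203 and 8 reads, 21.9 to 1 (10.9 to 51.5).

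For IL-23, the log2 ratio of Il12b to Il23a was 8.90, 6.72, 10.70 and 7.82 in the CLP replicates and 3.94, 4.72, 7.59 and 6.79 in the Sham replicates. Here the groups overlapped, since CLP replicate 2 lay below Sham replicates 3 and 4. The difference of 2.77 did not pass (exact permutation p = 0.0857, adjusted 0.114). It depended on the count added, at 3.58 with 2 counts (exact permutation p = 0.0286) and 1.67 with 0.1 counts (p = 0.457). Over all CLP libraries the 5004 Il12b reads stood against 24 of Il23a, 238 to 1 per kilobase (interval 160 to 372).

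For IL-27 the pair lay closer together in every CLP library than in any Sham library. The log2 ratio of Ebi3 to Il27 was 1.28, 1.86, 1.48 and 0.27 in the CLP replicates and 3.77, 3.07, 2.88 and 3.03 in the Sham replicates, with no overlap. The difference was -1.96 (exact permutation p = 0.0286, the smallest possible, adjusted 0.0571). In summed reads Ebi3 exceeded Il27 by 9.34 to 1 per kilobase in Sham (interval 8.28 to 10.6) and by 2.18 to 1 in CLP (interval 2.06 to 2.30). In CLP replicate 4 the ratio was 1.20 to 1.

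For IL-35 the log2 ratio of Ebi3 to Il12a was 8.28, 8.97, 11.81 and 7.69 in the CLP replicates and 8.39, 11.08, 8.43 and 8.67 in the Sham replicates. The groups overlapped fully, and the difference of 0.05 did not pass (exact permutation p = 0.971). The highest value in each group came from a library with 0 Il12a reads, CLP replicate 3 and Sham replicate 2, where the ratio rests on the 0.5 reads added. Of the 4 heterodimers, IL-27 was the pair with both mRNAs above 2 CPM in all 8 libraries.

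**Figure D2:**
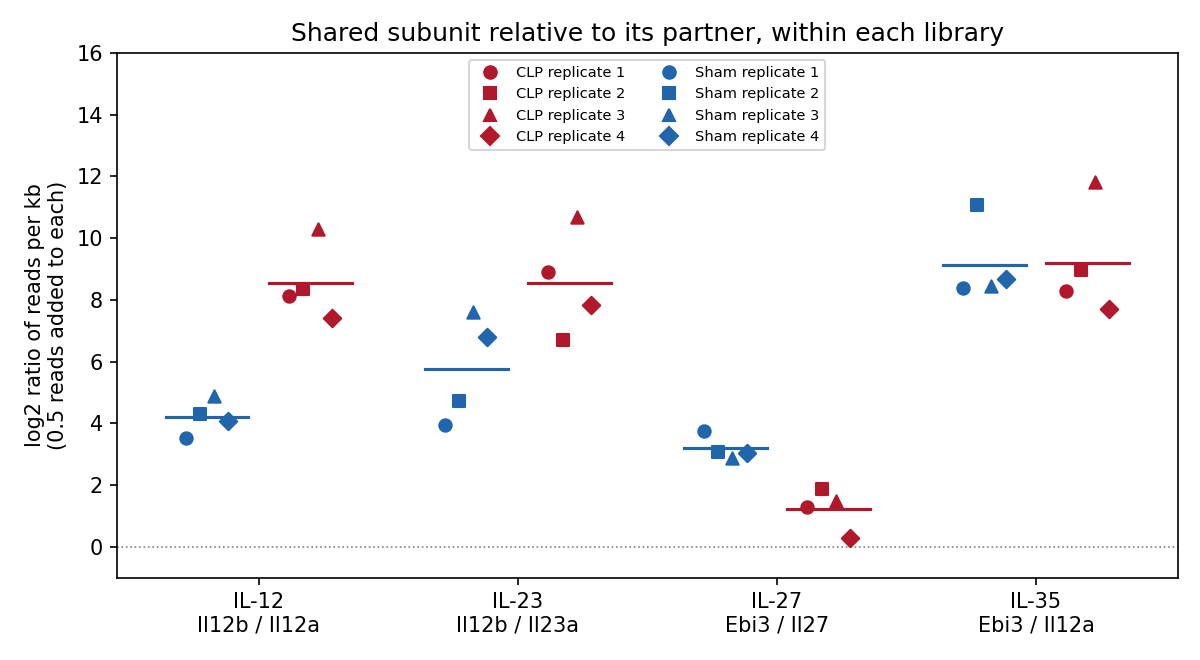
Log2 ratio of reads per kilobase of the shared chain to its partner in each library, with 0.5 reads added to each count, blue for Sham and red for CLP, with a bar at the group mean. The IL-12 ratio is higher and the IL-27 ratio lower in every CLP library than in any Sham library, while the IL-23 and IL-35 ratios overlap. Where a library had 0 reads of Il12a or Il23a, the ratio rests on the 0.5 reads added.

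In bulk libraries a change in the number of cells of a type and a change in RNA per cell cannot be told apart, and dendritic cells are a known splenic source of p40. The label was checked on markers of red pulp macrophages, whose 16 genes summed to 54667 to 62044 CPM in CLP and 46102 to 56194 CPM in Sham, with the adhesion molecule Vcam1 the most abundant (16138 ± 1980 and 12611 ± 1181 CPM, log2 fold change 0.36, adjusted p up to 0.0618 with 1 library left out). Of the 16, 9 were higher and 2 lower, against 1 and 4 with library totals. Over all genes tested, 19.8% were higher and 23.5% lower (1286 and 6435 of 14004 genes with library totals). The 12 conventional dendritic cell markers summed to 209 to 260 CPM in CLP and 129 to 396 CPM in Sham, with Cd24a, which erythroid cells also express, the most abundant (50.8 CPM in Sham replicate 1 and 303 CPM in Sham replicate 4). None of the 12 was at 0 over all libraries, and of the 11 tested 3 were higher and 1 lower, against 1 and 2 with library totals. Means in CLP and Sham were 6.40 and 10.8 CPM for Clec9a, a receptor of cross-presenting dendritic cells (log2 fold change -0.76, adjusted p = 0.0409 in edgeR), 4.25 and 4.94 CPM for Xcr1 and 7.89 and 6.91 CPM for Flt3. The dendritic cell factor Zbtb46 was higher in CLP (0.73, adjusted p = 0.00828), and so was Ccr7, which activated cells also induce, at 26.9 against 9.78 CPM (1.47, adjusted p = 0.000636). Clec9a, Xcr1, Flt3, Zbtb46, Ccr7 and Siglech were named after their values were seen.

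Markers of the other cell types summed to lower levels than those of red pulp macrophages. The 8 plasmacytoid dendritic cell markers summed to 153 to 166 CPM in CLP and 129 to 148 CPM in Sham, led by Tcf4, with Siglech under 1 CPM in every library. The 10 B cell markers summed to 117 to 191 and 124 to 213 CPM, led by Ighm, and the 8 monocyte markers to 34.0 to 65.7 and 37.8 to 51.1 CPM. The 9 T cell markers, led by Cd4, summed to 118 to 163 and 105 to 125 CPM and the 7 NK cell markers, led by Prf1, to 5.19 to 14.3 and 7.06 to 10.8 CPM. Cd4 alone had means of 86.1 CPM in CLP and 72.9 CPM in Sham, against 7.44 and 5.71 CPM for Cd3e of the same list. The 4 marginal zone macrophage markers, led by Siglec1, summed to 569 to 958 and 545 to 636 CPM, and the 8 erythroid markers, led by Slc4a1, to 739 to 1253 and 330 to 1558 CPM. The 9 neutrophil markers, led by S100a9, summed to 10.4 to 27.5 CPM in CLP and 3.33 to 8.91 CPM in Sham, with 2 of 3 tested higher. These 2 were S100a8 and S100a9, and the remaining 7 of the 9 had means under 1 CPM. The 7 platelet markers, led by Ppbp, summed to 25.3 to 30.2 and 9.70 to 12.1 CPM, with 4 of 5 tested higher, against 19.8% of all genes tested. Of 4 marginal zone macrophage markers 1 was higher, the scavenger receptor Marco (227.5 against 91.3 CPM, log2 fold change 1.32, adjusted p = 0.0219 in edgeR). Cd209b of that list had means of 0.580 CPM in CLP and 0.389 CPM in Sham. Of 7 erythroid markers tested, 2 were higher, Alas2 (1.57, adjusted p = 0.00467), the heme synthesis enzyme of red cells, and Hbb-bs, a globin (1.57, adjusted p = 0.00477), and 1 was lower, the erythropoietin receptor Epor (-0.99, adjusted p = 0.0124). S100a8, Cd3e, Marco, Cd209b, Alas2, Hbb-bs and Epor were named after their values were seen. Of all genes tested, 19.8% were higher, 23.5% lower and 43.3% changed in either direction. In the lists left, 1 of 6 plasmacytoid dendritic cell markers tested and 1 of 7 monocyte markers tested were higher. Lower were 1 of 10 B cell and 1 of 6 NK cell markers tested, and 0 of 9 T cell markers were called. The part of these cells in the subunit changes was not tested.

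Receptor chains for the same cytokines were mostly scarce. Of 5 chains, 4 were tested, and 2 were higher and 0 lower, against 19.8% and 23.5% of all genes tested. With library totals 1286 and 6435 of the 14004 genes were. Like the members, all gene lists were chosen with earlier results of these data known, so their counts are not independent of those results. Il6st, which encodes gp130, the signalling chain of the IL-27 receptor, was at 821, 895, 792 and 789 CPM in the CLP replicates and at 559, 569, 518 and 381 CPM in the Sham replicates. The groups did not overlap (log2 fold change 0.70, SE 0.12, adjusted p = 0.000666 in edgeR). Il27ra, the chain specific to IL-27, lay between 1.15 and 4.33 CPM in CLP and between 1.38 and 3.03 CPM in Sham and did not pass (log2 fold change 0.30, SE 0.40, adjusted p = 0.583).

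The chains for IL-12 and IL-23 were close to the detection limit apart from Il12rb2. Il12rb1, shared by both receptors, lay between 0.274 and 0.705 CPM in CLP and between 0 and 0.816 CPM in Sham (adjusted p = 0.985 in edgeR), and Il23r had 9 reads over the CLP libraries and 3 over the Sham libraries (exact permutation p = 0.543). Il12rb2, the signalling chain of the IL-12 receptor, was at 13.2, 16.7, 22.1 and 16.3 CPM in the CLP replicates and at 13.5, 11.9, 11.9 and 14.2 CPM in the Sham replicates. The groups overlapped, and its call was marginal (log2 fold change 0.41, adjusted p = 0.0484), lost with library totals (0.09, adjusted p = 0.636). Leaving out any of CLP replicates 2 to 4, or Sham replicate 2 or 3, also ended it, with an adjusted p of at most 0.12. Its exons share 1519 bases with Serbp1, an mRNA-binding protein gene on the opposite strand whose mean was 161 ± 7 CPM in CLP against 138 ± 4 in Sham. No source used here states whether counting used strand, and without it the reads of overlapping genes cannot be told apart.

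**Figure D3:**
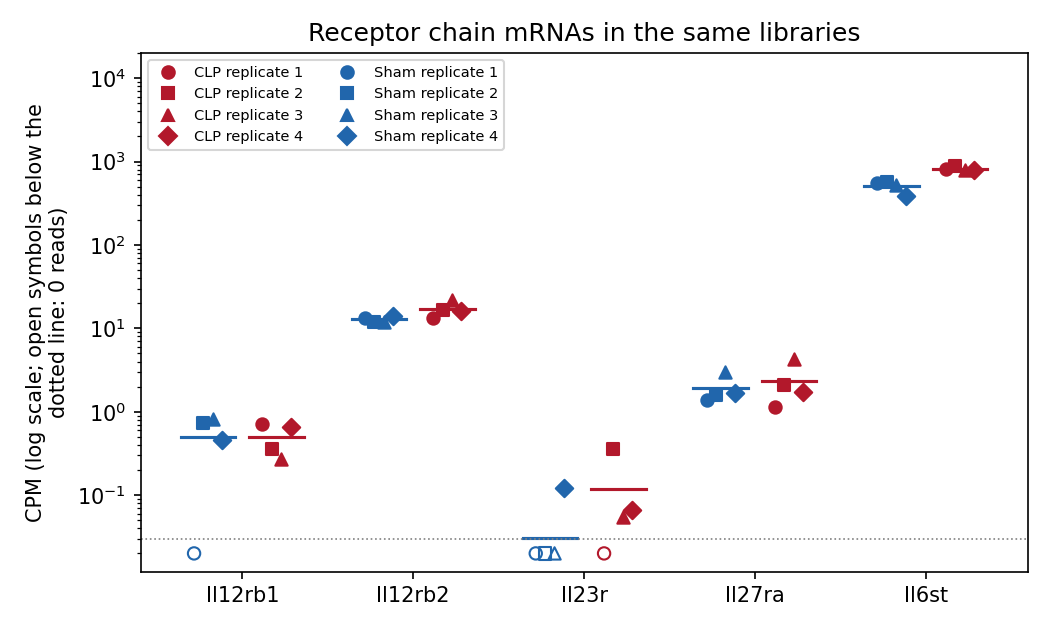
CPM (log scale) of the 5 receptor chains in each library, blue for Sham and red for CLP, with a bar at the group mean and open symbols for libraries with 0 reads. Il6st stands between 381 and 895 CPM, far above the other chains, and does not overlap between the groups.

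Among the kinases and STAT factors that these receptors use, 5 of 8 were higher and 2 lower (3 and 2 with library totals, 5 and 1 without Sham replicate 2), with a median log2 fold change of 0.59. As a background, 19.8% of all genes tested were higher and 23.5% lower (1286 and 6435 of 14004 genes with library totals). Stat4, the factor best known for IL-12 signalling, went from a Sham mean of 26.3 ± 4.2 CPM up to 87.1 ± 18.7 CPM (log2 fold change 1.73, adjusted p = 2.92e-05 in edgeR). Jak2, a kinase bound to the IL-12 and IL-23 receptors, rose 2.79-fold (1.48, adjusted p = 2.73e-06). Stat3 rose 1.86-fold, and Jak1, the most abundant, 1.39-fold, although Jak1 was not called with library totals (adjusted p = 0.0502). Stat5a, named after its values were seen, was also higher (0.70, adjusted p = 0.00809) and also lost its call there (adjusted p = 0.0729). Tyk2, the kinase on Il12rb1, fell by 0.28 (adjusted p = 0.00731, and 0.0509 without Sham replicate 2) and Stat5b by 0.29 on the log2 scale. Both were named after their values were seen.

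Transcription factors that bind or restrain the subunit genes changed in both directions, with 16 of 27 higher and 6 lower (13 and 9 with library totals, 14 and 3 without Sham replicate 2) and a median log2 fold change of 0.69. The shares over all genes tested were 19.8% higher and 23.5% lower (1286 and 6435 of 14004 genes with library totals). Rel, the NF-kB subunit that Il12b and Il23a depend on in macrophages, rose 5.63-fold to 1306 ± 275 CPM, from 232 ± 63 CPM after Sham surgery. Nfil3, a repressor of Il12b, rose 6.25-fold and Prdm1, which encodes Blimp-1, 5.76-fold. Nfkbiz, the nuclear IkB protein that Il12b requires, rose 3.34-fold, Irf1 2.61-fold and Spi1, which encodes PU.1, 1.98-fold. Jun, an AP-1 factor, did not pass (-0.04, adjusted p = 0.807), though it was called lower with library totals (-0.36, adjusted p = 0.0134).

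The lower members of that list were Fos, Cebpa, Maf, Irf3, Irf8 and Nfkbid. Fos, an AP-1 factor, fell from 1537 ± 113 to 297 ± 100 CPM, and Cebpa, a myeloid C/EBP factor, by 2.14 on the log2 scale, to 10.6 ± 1.5 CPM (adjusted p = 9.19e-07 in edgeR). Maf, a repressor of IL-12 genes, fell by 0.82 on the log2 scale. Irf8, an activator of Il12b, fell by 0.35 (adjusted p = 0.0288), a call that depended on 6 libraries, CLP replicates 2 and 3 and each of the Sham ones (with 1 of them left out, adjusted p reached 0.0906). Irf3 fell by 0.39 (adjusted p = 0.0134, and 0.0637 without Sham replicate 2), and Nfkbid by 0.30 (adjusted p = 0.0391). The Nfkbid call also depended on 6 libraries, all but CLP replicate 2 and Sham replicate 4, with an adjusted p that reached 0.202. Nfkbiz, Irf1, Spi1, Cebpa, Maf, Irf3, Irf8 and Nfkbid were named after their values were seen.

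Among genes whose proteins control the stability of cytokine mRNAs, 8 of 10 were higher and 1 lower, with 5 higher and 2 lower under library totals. By comparison, 19.8% of all genes tested were higher and 23.5% lower (1286 and 6435 of 14004 genes with library totals). The list holds genes for proteins that promote decay and for proteins that stabilise mRNAs, such as Elavl1 and Arid5a. Elavl1 and Arid5a were both higher (log2 fold change 0.41 and 0.84) and were named after their values were seen. Neither call held with library totals (0.096 and 0.52, adjusted p = 0.227 and 0.0848 in edgeR). Zc3h12a encodes Regnase-1, an RNase that cleaves Il12b and Il6 mRNA, and rose 3.25-fold, to 380 ± 16 CPM (adjusted p = 2.19e-05 in edgeR). Its relative Zc3h12c rose 3.71-fold, from 5.63 ± 1.13 CPM. Zfp36, which encodes the AU-rich element binding protein tristetraprolin, rose 1.53-fold, Zfp36l1 2.06-fold and the MAP kinase phosphatase Dusp1 1.67-fold. Zfp36l2, named after its value was seen, fell by 0.68 (adjusted p = 0.0386), and leaving out any single library but CLP replicate 2 ended that call (adjusted p up to 0.0946).

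Upstream sensors and priming receptors were higher for 10 of 16 and lower for 2 (9 and 4 with library totals). Over all genes tested, 19.8% were higher and 23.5% lower (1286 and 6435 of 14004 genes with library totals). The lipopolysaccharide co-receptor Cd14 rose 8.06-fold. Cd40, through which T cells drive IL-12 production, rose 5.90-fold, to 29.3 ± 10.7 CPM (adjusted p = 0.00091 in edgeR), and Ptger4, a prostaglandin E2 receptor, 3.48-fold. Unc93b1, the chaperone of endosomal Toll-like receptors, did not pass (0.21, adjusted p = 0.0621). Tlr4, the lipopolysaccharide receptor, and Tlr9, the receptor for bacterial DNA, fell by 1.66 and 0.47 on the log2 scale and were named after their values were seen.

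**Figure D4:**
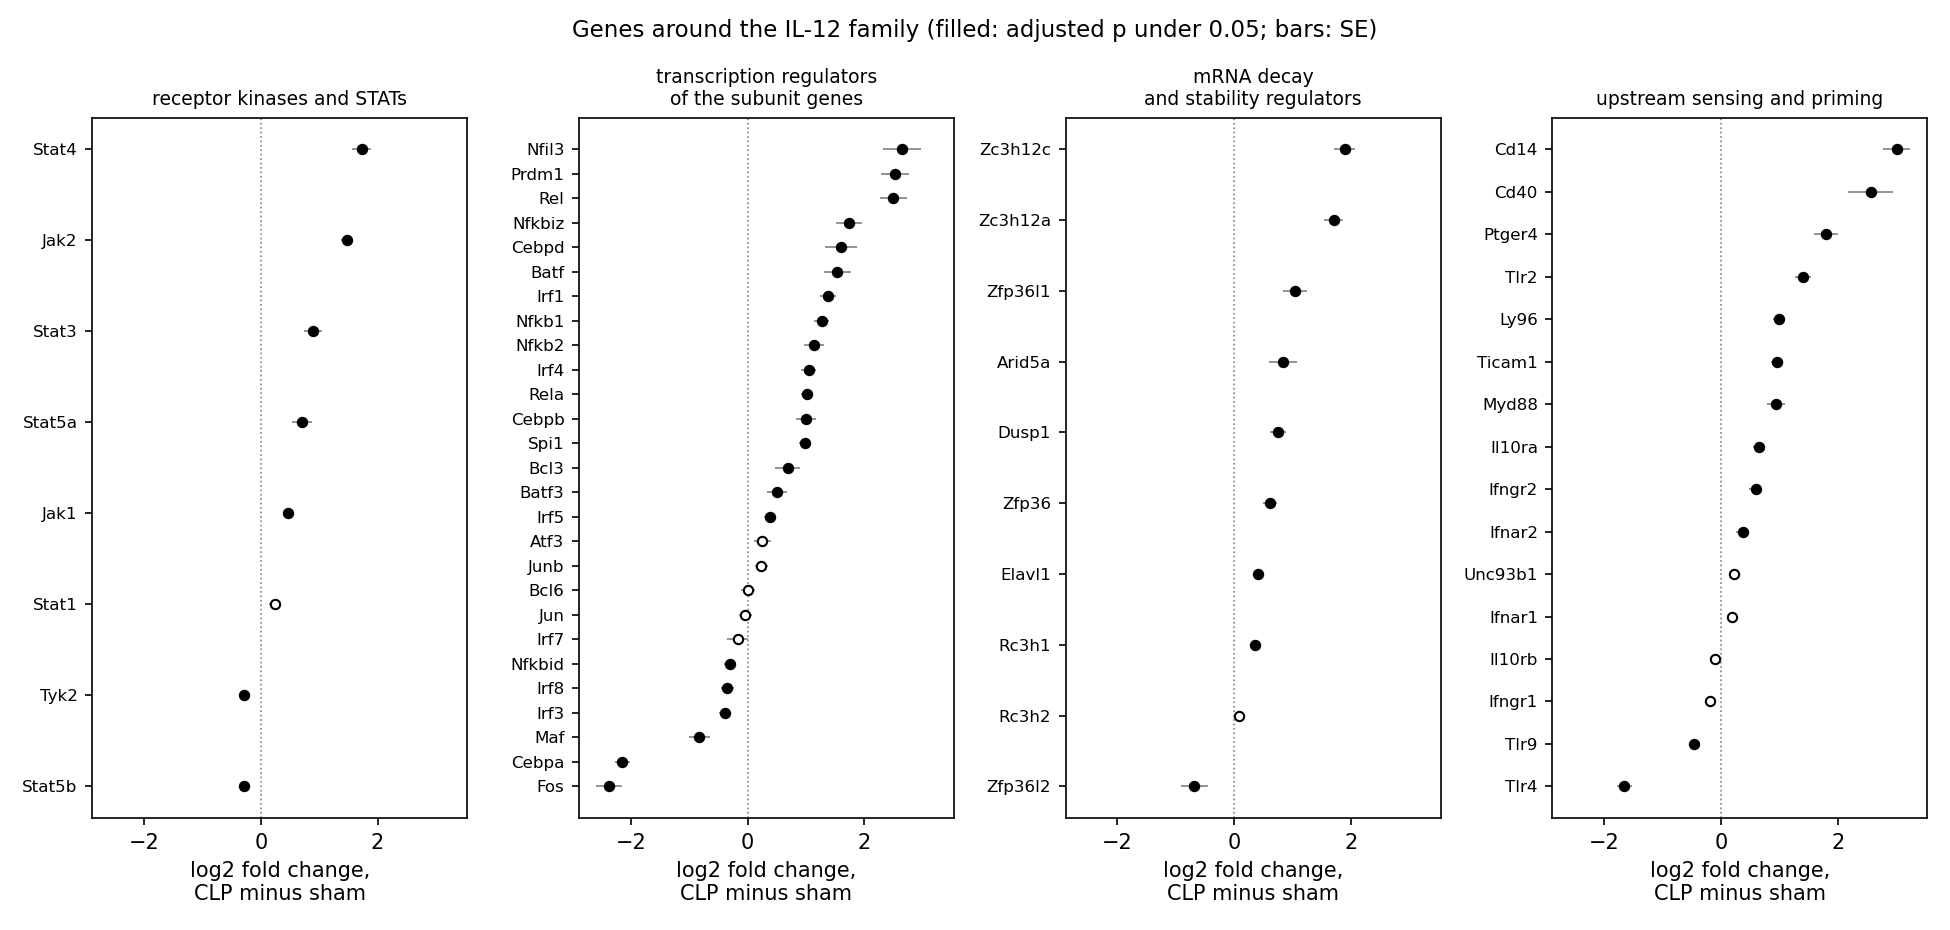
Log2 fold change, CLP minus sham, with SE bars for the tested genes of 4 lists: receptor kinases and STATs (8 genes), transcription regulators (27), mRNA decay and stability regulators (10) and upstream sensing and priming (16). Filled points passed the adjusted p threshold of 0.05, and Cd14, at 3.01, is the highest point.

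Of 10 cytokines that act with or against the family, 7 were tested and all 7 of these were higher (5 with library totals). The share of all genes tested that were higher was 19.8% (1286 of 14004 genes with library totals). Il10, which represses Il12b transcription in macrophages, rose 7.10-fold, to 146 ± 65 CPM (adjusted p = 0.000811 in edgeR). Il18, the partner of IL-12 in inducing interferon-gamma, rose 1.39-fold to 204 ± 25 CPM, though it was not called with library totals (adjusted p = 0.156), and Tnf rose 4.18-fold. Both were named after their values were seen. Il1b rose 7.32-fold, and Tgfb1 was called higher (0.26, adjusted p = 0.0154) but had a log2 fold change of -0.06 with library totals and an adjusted p of 0.051 without CLP replicate 1. Ifng, the main product of IL-12 responsive lymphocytes, was too low to test, with means of 0.191 CPM in CLP and 0.0969 CPM in Sham, and was named after its values were seen.

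Structural relatives of the subunits were compared next. Of 10 helical cytokines and cytokine receptors, mainly of the IL-6 branch, 6 were tested, and 4 were higher and 0 lower (4 and 2 with library totals). These 4 include Crlf2, which lies outside that branch. Higher and lower shares over all genes tested were 19.8% and 23.5% (1286 and 6435 of 14004 genes with library totals). Il6 rose 11.1-fold. Clcf1, a helical cytokine, rose 6.44-fold, to 314 ± 48 CPM (adjusted p = 1.70e-05 in edgeR). Crlf2, the thymic stromal lymphopoietin receptor, rose 1.53-fold, and Il6ra, the most abundant receptor of this list, did not pass (-0.06, adjusted p = 0.555) but was called lower with library totals (-0.38, adjusted p = 0.00173).

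Of 9 genes that mark the interferon-gamma and IL-17 responses of lymphocytes, 4 were tested. In edgeR none was called (0 higher and 0 lower, also with library totals), against 43.3% of all genes tested in either direction. All 4 were low, so the lack of calls says little about these responses. Means in CLP and Sham were 1.12 and 0.538 CPM for Gzmb and 0.799 and 0.697 CPM for Tbx21, both named after their values were seen. Il18r1 was at 1.36 ± 0.71 CPM in CLP and 1.82 ± 0.59 CPM in Sham (adjusted p = 0.431), and Il18rap at 1.62 ± 1.34 and 1.80 ± 1.00 CPM (adjusted p = 0.878).

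The genes with the most similar profiles over the 8 libraries were found by Pearson's r of log2 CPM among 9089 named genes whose mean reached 5 CPM. Because the groups differ, 855 genes had an r above 0.9 with Il12b, 1036 with Il27 and 1372 with Ebi3, so these values mainly repeat the contrast. Nearest to Il12b were Chp1 (r = 0.995), Irf4 (0.990) and Rpl10a (0.989). With group means removed, r was 0.956 for Chp1 and 0.908 for Rpl10a. Irf4 was at 18.4 CPM in CLP and 8.91 CPM in Sham. Nearest to Il27 were Washc1 (0.994), Ccdc186 (0.993) and Hcar2 (0.989), at 0.948, 0.926 and 0.894 with group means removed. Nearest to Ebi3 were Vamp3 (0.997), G3bp1 (0.996) and Calu (0.996), at 0.944, 0.936 and 0.933 with group means removed. Among the subunits themselves, with group means removed, r was 0.294 for Il12b with Il27, 0.331 for Il12b with Ebi3 and 0.286 for Il27 with Ebi3. These are descriptions over 8 libraries, and 3 genes were picked from 9089 in each case.

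The fold changes of the tested subunits held their direction and their call under each alternative run. Over those alternatives the log2 fold change ranged from 4.72 to 5.63 for Il12b, from 2.62 to 3.32 for Il27 and from 0.68 to 1.09 for Ebi3.

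**Figure D5:**
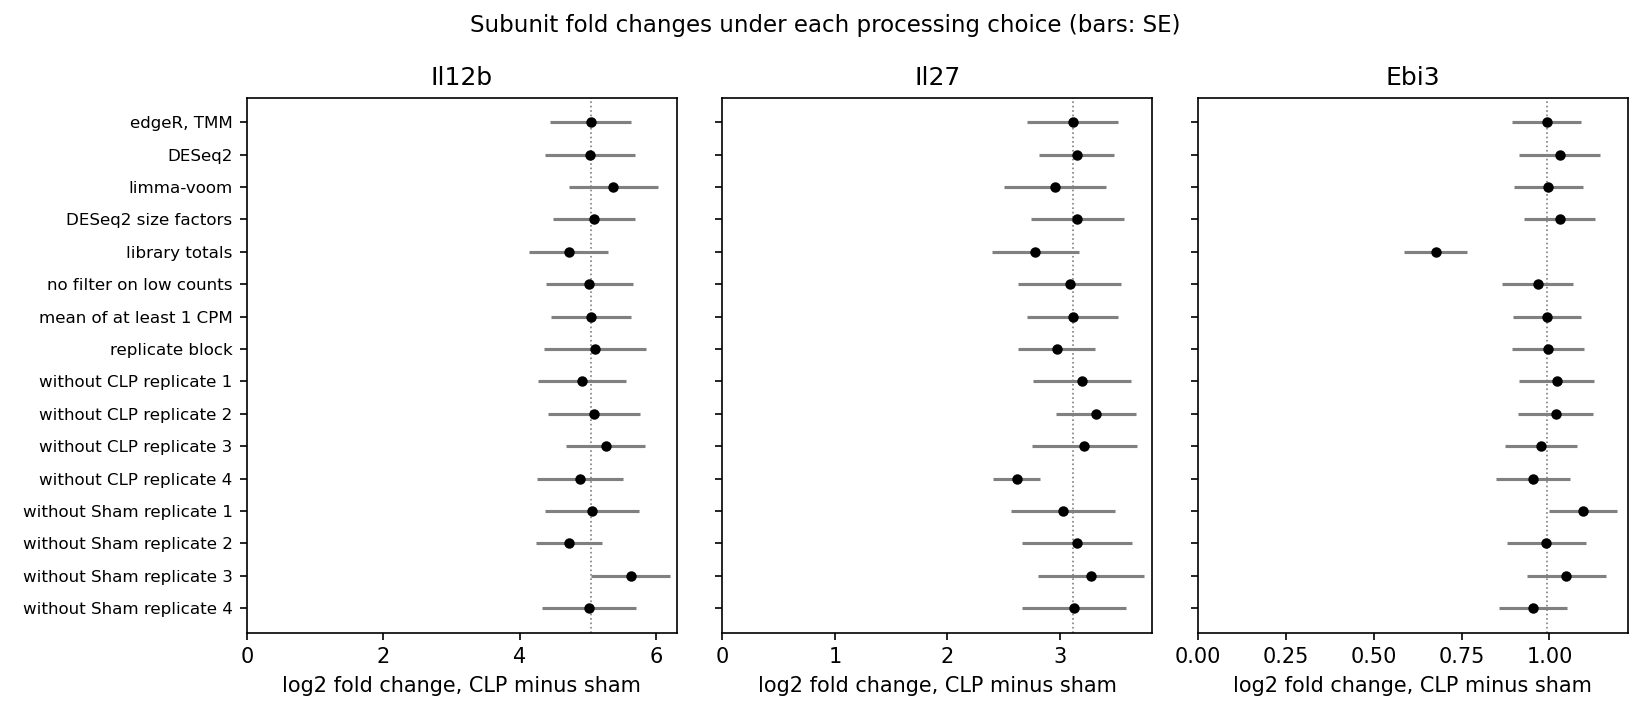
Log2 fold change, CLP minus sham, with SE bars for Il12b, Il27 and Ebi3 under edgeR with TMM and 15 alternatives, including each library left out in turn. The dotted line marks the value under edgeR with TMM. Ebi3 is lowest with library totals (0.68) and Il27 is lowest without CLP replicate 4 (2.62).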

How the data were processed

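The deposited values were raw counts of reads per Ensembl gene in 1 table with 1 column per library, and columns were tied to samples by the library name in the labels. Per the submitters' processing notes, FastQC, STAR 2.7.10b, featureCounts and DESeq2 were used with build mm39, without stated roles. Symbols and exon lengths came from GENCODE mouse release M21. A robust quasi-likelihood F-test in edgeR 4.0.16 (R 4.3.3) compared the 2 groups with no covariates, after filterByExpr had kept 14004 genes and TMM had scaled the libraries. The SE of a log2 fold change was its size over the root of F. Subunits under the filter and pair ratios were tested by exact permutation. The members and lists were chosen with earlier results of these data known. Named genes were the subunits, the receptor chains, and per functional list the 2 most abundant members and the 3 largest called changes at 5 CPM or more, plus the most abundant marker of each list. A few items that this rule or the lists hold are not reported here. Lowest chi-square per degree of freedom between libraries of a group was 8.48, so none was treated as a repeat. Alternatives used DESeq2 1.42.0, limma 3.58.1, other scalings and filters, a replicate block and each library left out. The fit was tested on simulated data.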

Additional observations from a re-analysis of the deposited data

Results flagged for a closer look

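Among 136 groups of 4 libraries checked for the named genes and ratios, 15 held a library set apart from the other 3 by most of the group's range. For independent, normally distributed values chance flags about 1 group in 20. That rate is no yardstick here, because the genes share libraries and some groups hold mostly counts of 0. For the subunits, Il23a was detected among Sham libraries in replicate 1 only (0.145 CPM, against 0 in the others), and the log2 ratio of Ebi3 to Il12a was 11.1 in Sham replicate 2, which had 0 Il12a reads, against 8.39 to 8.67. Il23r was detected among Sham libraries in Sham replicate 4 only (0.123 CPM). Sham replicate 4 was low for Dusp1 (863 CPM against 1261 to 1328), Zfp36 (739.6 against 1082 to 1127), Zc3h12a (77.3 against 127 to 135) and Il6 (2.55 against 4.98 to 5.24), and high for Cd24a (303 against 50.8 to 81.3). CLP replicate 3 was low for Nfil3 (241 CPM against 289.6 to 292), Clcf1 (243 against 334 to 345) and Nfkbid (62.9 against 73.9 to 75.2), and high for Il18rap (3.62 against 0.86 to 1.02). Cd24a was low in CLP replicate 4 (91.6 CPM against 145 to 154), Prf1 high in Sham replicate 3 (2.45 against 1.56 to 1.59) and Ppbp low in CLP replicate 2 (8.54 against 11.2 to 11.3).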

How the results depend on the processing

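Il12b, Il27 and Ebi3 kept direction and call under all 15 alternatives, with adjusted p up to 0.0103, 0.00336 and 0.000269. Leaving out each library in turn gave differences of 0.0507 to 0.205 CPM for Il12a and 0.182 to 0.421 CPM for Il23a. The highest of both came without CLP replicate 3. With 2 counts added in place of 0.5, the ratio differences were 4.43 (Il12b to Il12a), 3.58 (Il12b to Il23a) and -1.94 (Ebi3 to Il27), each with an adjusted p of 0.0381. The raw p of the first and the last stayed at 0.0286, the smallest possible, and the adjusted value moved only because Il12b to Il23a reached it too. With 0.1 counts added that ratio's difference was 1.67 (exact permutation p = 0.457). With lengths of the longest coding transcript, chosen after seeing the data, the pooled Il12b to Il12a ratio was 240 in CLP and 17.0 in Sham. Over the 8 functional lists, 51 of 81 tested genes were higher and 11 lower. Scaling by library totals cut the higher count to 39 and raised the lower count to 19. With 1 library left out 46 to 51 were higher and 6 to 11 lower, the 6 without Sham replicate 2. Library totals shifted log2 fold changes by a median of -0.32, gave 1286 higher and 6435 lower genes over the whole table (2767 and 3297 with TMM), and turned Tgfb1 to -0.0581 and Tcf4 to -0.28. With a replicate block Il12b was at 5.10, Il27 at 2.97 and Ebi3 at 1.00, and Il12rb2 lost its call (adjusted p = 0.0794). Sign flips of the paired ratio differences gave an exact p of 0.125, the smallest that 4 pairs allow, for every ratio but Ebi3 to Il12a (p = 1). The labels share replicate numbers only. Deviations of same-numbered libraries had correlations of 0.074, -0.038, 0.261 and -0.192, so the numbers were not taken to pair the libraries. Subunits under 1 CPM rest on 0 to 14 reads per library, which limits what can be said of IL-12, IL-23 and IL-35.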
